A study of Homo sapiens with 12 samples.

Results

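Human melanoma cells of the lines SkMel-19 and Malme3M were treated for 8 h with 1000 nM PLX4032 and compared with the same lines given DMSO alone. The comparison was chosen by the dose and the cell line in the sample labels, and it holds 4 of the 12 arrays and 2 of the 5 cell lines of the study. PLX4032, also known as vemurafenib, is an inhibitor of the RAF kinases. All lines carry the BRAFV600E mutation, so the controls share it with the treated cells, and the DMSO controls received the solvent that carried the drug. Both lines are established melanoma lines grown in RPMI medium with fetal bovine serum, and nothing in the labels says that a line was grown or treated more than once. RNA was measured on Affymetrix arrays with 1 array for each line at each dose. The 2 lines are therefore the replicates. A p-value measures only the spread among the arrays of the fit, with the variance of each gene moderated by that of all genes. The same lines treated with 250 nM PLX4032 (2 arrays) entered the fit, and the lines SkMel-1, SkMel-5 and SkMel-28, each with 1 DMSO and 1 array at 250 nM, served as arrays outside it.

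The RAF kinases pass signals from RAS to the kinases MEK and ERK, and ERK in turn switches on genes in the nucleus. Among the first of these are genes for transcription factors of the ETS and AP-1 families, for the growth regulators MYC and cyclin D1, and for phosphatases and Sprouty proteins that shut the pathway down again. In melanoma with a V600E form of BRAF the mutant kinase drives this output without RAS, and melanocytes use the same pathway to tune growth against pigment production.

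The genes that moved most in both lines fell, and most of them are known targets or feedback inhibitors of ERK signalling. DUSP6, SPRY2, MAFF, ETV5, FOSL1, HES1, CCND1, SPRY4 and IER3 fell by at least 8-fold in both lines, whereas 0 genes rose by that much in both. Of these 9, ETV5, CCND1 and IER3 had every array of the comparison above the filter level given below. Of 7178 genes tested with limma (line as a block, Benjamini-Hochberg adjusted p under 0.05), 803 passed, that is, changed (11.2%). Of these, 423 fell (5.89% of the genes tested) and 380 rose (5.29%). All 803 moved the same way in SkMel-19 and in Malme3M, against 5230 of all genes tested (72.9%), which follows in part from the test itself. Nothing here tells less RNA per cell from fewer cells of a kind. The count rests on both lines. In fits over the other 4 lines, in which the 1 remaining 1000 nM array is assumed to vary like the rest, 114 genes passed without SkMel-19 and 46 without Malme3M.

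At least 2-fold falls in both lines were seen for 115 genes (1.6%) and rises of that size for 54 (0.752%). Of these, limma called 112 and 53. The 4 that it did not call were DUSP5, LIF and SLC2A3, which were lower, and MST1, which was higher. DUSP5, a nuclear ERK phosphatase, had a log2 change of -1.30 in SkMel-19 and -2.62 in Malme3M (limma adjusted p = 0.0529). LIF, a cytokine of the interleukin-6 family, had a signal of 19.6 in SkMel-19 with DMSO and of 905.5 in Malme3M, so its change could not be measured in the former. SLC2A3, a glucose transporter, was at -1.37 and -5.20, the latter with a treated signal of 15.9 (limma adjusted p = 0.0512), and MST1, a secreted ligand of the receptor RON, was at 1.05 and 1.17 (limma adjusted p = 0.0613). Both SkMel-19 signals of MST1 were under the filter level given below (26.1 with DMSO and 67.1 at 1000 nM), so its rise there is uncertain in size. A change of at least 4-fold in both lines was found for 21 falls and for 2 rises, PNRC1 and STON1. The SkMel-19 signal of STON1 with DMSO was 42.9, under the filter level, so its rise there is uncertain in size. No gene moved at least 2-fold in opposite directions in the 2 lines (0 genes).

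The response was larger in Malme3M. There 299 genes were at least 2-fold lower and 209 at least 2-fold higher, against 163 and 101 in SkMel-19. Among the genes that passed, the change was larger in Malme3M for 285 of the 423 falls and for 256 of the 380 rises. With 1 array per line and dose, this difference between lines was not tested. Across the 7178 genes, which are not independent replicates, the changes in the 2 lines correlated at r = 0.694.

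**Figure D1:**
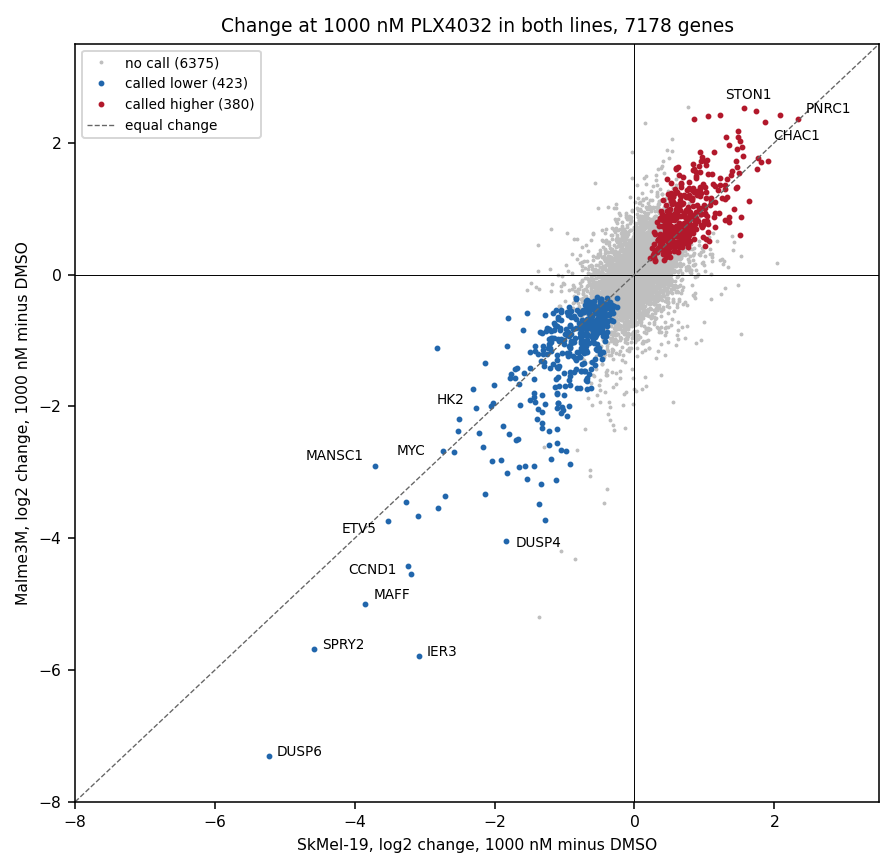
Log2 change at 1000 nM PLX4032 against DMSO in SkMel-19 (horizontal axis) and Malme3M (vertical axis), 1 point per gene tested (7178). Coloured points are the 423 genes that fell and the 380 that rose by limma, all of them with the same sign in both lines, and the dashed line marks an equal change in both lines.

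Signals are in the units of the array, in which the trimmed mean of every array is 500.1, and a gene entered the tests if its mean log2 level over all 12 arrays reached that of a signal of 85.7. Log2 changes and fold changes were computed on signal + 12, as log2(signal + 12). This understates the change of low genes, and fold changes are smaller than the ratios of the signals. SE is the standard error of the fit over 2 lines, which also holds their 250 nM arrays and a variance moderated across genes. It can be smaller than the spread between the changes of the 2 lines, as for DUSP4 (-1.84 and -4.04, SE 0.46). Of the 14 largest falls, 9 had at least 1 array of the comparison under the level of 85.7. A gene that passed the filter through its DMSO arrays alone had to be lower in the treated ones, and signals near the bottom of the scale make its fall uncertain in size. For the genes described below, the log2 change with signals under 85.7 raised to that value is given where it differs by over 1.5 times.

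The feedback inhibitors of ERK stood at the top. DUSP6, the phosphatase that removes the activating phosphates from ERK in the cytoplasm, had a signal of 1067.3 in SkMel-19 and 5927.2 in Malme3M with DMSO, and of 16.8 and 25.4 at 1000 nM. Both treated arrays were thus far below both controls and close to the bottom of the scale. The log2 change was -6.27 (SE 0.47, limma adjusted p = 0.00266), and it was -4.87 when signals under 85.7 were raised to that value. SPRY2, a Sprouty protein that blocks signalling upstream of RAF, went from 2011.8 to 72.4 in SkMel-19 and from 1407.7 to 15.7 in Malme3M (log2 change -5.13, SE 0.31, limma adjusted p = 0.00153). SPRY4, of the same family, went from 603.9 to 60 and from 564.5 to 33.6 (-3.38, SE 0.24). For both Sprouty genes the treated arrays lay below the filter level in both lines, and with raised signals the changes were -4.30 and -2.77. DUSP4, a nuclear ERK phosphatase, remained measurable, with 4123.3 against 1144.2 in SkMel-19 and 6068.6 against 357.2 in Malme3M, and its fall was much larger in Malme3M (log2 changes -1.84 and -4.04). SPRED2, DUSP1 and SPRY1, which also act against the pathway, fell by 2.50, 1.64 and 1.45 on the log2 scale. The treated signal of DUSP1 in Malme3M was 26.7, and its change with raised signals was -1.02. In all, 7 of the 10 measured members of this group fell (70%) and 0 rose, against 5.89% and 5.29% of all genes tested. The median log2 change was -2.23, against 0.04 over all genes tested. Of the RAS, RAF, MEK and ERK components themselves 0 of 15 measured passed (11.2% over all genes), with a median of -0.09. MAP2K1, which encodes MEK1, came nearest (-0.35, limma adjusted p = 0.0724).

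**Figure D2:**
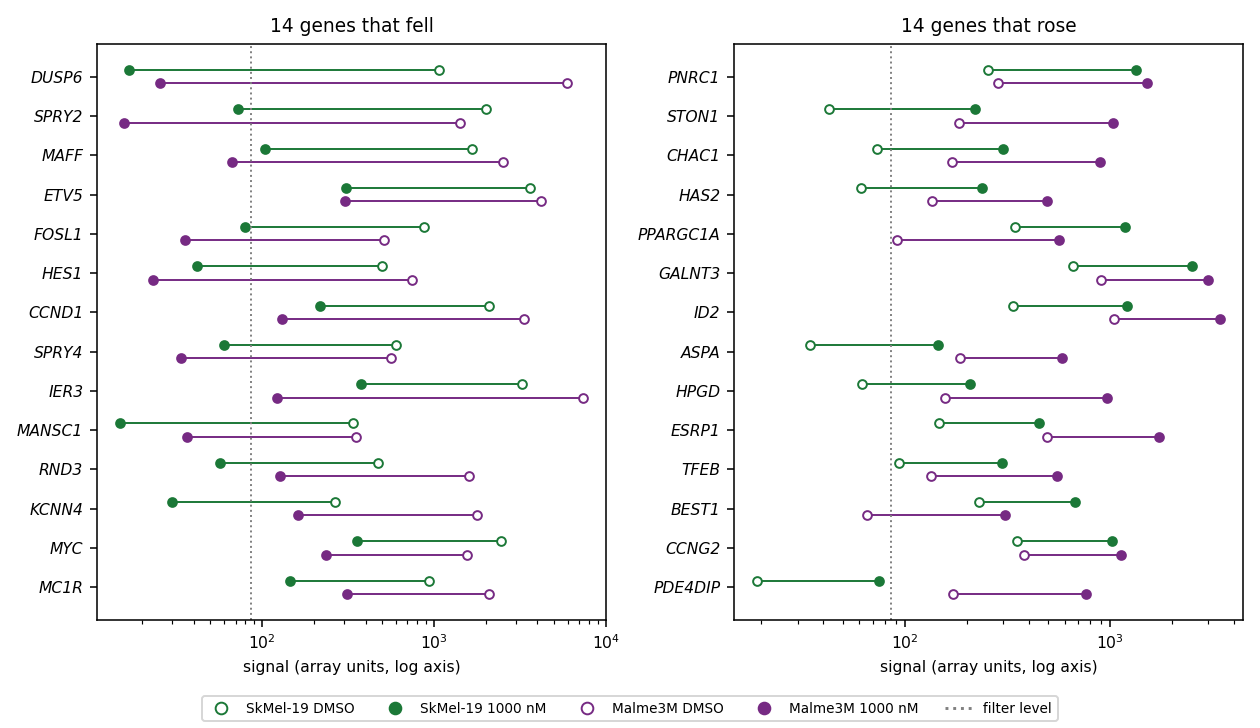
Signals (array units, log axis) of the 14 genes with the largest falls and the 14 with the largest rises in both lines, with open points for DMSO, filled points for 1000 nM PLX4032, green for SkMel-19 and purple for Malme3M. The dotted line is the filter level of 85.7. DUSP6 and SPRY2 fell from above 1000 to below that line in both lines, whereas PNRC1 rose from below 300 to above 1000.

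Transcription factors that respond to ERK fell next. ETV5, a member of the PEA3 group of ETS factors, had signals of 3632.3 and 4190.8 with DMSO in SkMel-19 and Malme3M, and of 306.0 and 301.7 at 1000 nM. The treated arrays were alike in the 2 lines, and the groups were far apart (log2 change -3.63, SE 0.15, limma adjusted p = 0.00101). The other PEA3 genes fell as well: ETV1 by 2.39 and ETV4 by 2.10 on the log2 scale. ELK3, an ETS factor that works with the serum response factor, fell by 1.91. ETS1 and ELF1 rose instead (0.85 and 0.67). Of 11 measured ETS genes 4 fell (36.4%, against 5.89% of all genes) and 2 rose (18.2%, against 5.29%). Their median was -0.34. MYC, the growth regulator, dropped from 2444.2 to 356.8 in SkMel-19 and from 1558.8 to 234.1 in Malme3M (-2.70, SE 0.13, limma adjusted p = 0.00101). The fall of MYC was of nearly the same size in both lines.

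FOSL1, which encodes the AP-1 subunit FRA1, had DMSO signals of 869.1 and 508.5 and 1000 nM signals of 79.9 and 35.4 (-3.36, SE 0.17, limma adjusted p = 0.00101). JUN, its usual partner, was at 944.2 and 146.2 with DMSO and at 181.8 and 35.5 with the drug. It fell by 2.02 on the log2 scale, although its level in untreated Malme3M lay below that of treated SkMel-19, so the groups overlapped. JUND fell by 1.58. MAF, a large MAF factor, passed with a change of 1.40, but in SkMel-19 both its signals were under the filter level (8.2 and 26.7), so a rise was measured in Malme3M alone (89.5 to 356.5). MAFF, a small MAF protein that pairs with larger bZIP factors, was the strongest of this family, with 1658.3 and 2532.8 against 104.0 and 67.2 (-4.43, SE 0.28, limma adjusted p = 0.00196). Of 10 measured AP-1 and MAF genes, 4 fell (40%) and MAF passed as higher (10%), with a median of -0.58. Over all genes tested 5.89% fell and 5.29% rose. Among 14 measured immediate early genes, which cells switch on within minutes of a growth signal, 7 fell (50%) and 0 rose (median -0.94). They included IER3 (-4.43, limma adjusted p = 0.0123), PHLDA2 (-2.74), IER2 (-2.25) and the nuclear receptor NR4A1 (-1.79). IER3 went from 3270.8 to 375.1 in SkMel-19 and from 7347.6 to 121.9 in Malme3M, which is a fall of 8.48-fold in the former and of 55.0-fold in the latter. EGR1, the classical immediate early factor, lay under the filter. Its signals were 73.2 and 93.4 with DMSO and 24.0 and 18.3 at 1000 nM, and it did not pass when every gene was tested (-1.52, SE 0.36, limma adjusted p = 0.0864).

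Promoters of RefSeq genes (GRCh38.p14, 250 bases before to 50 after the first start listed) were matched for 6058 of the 7178 genes and searched on both strands for the letters of sites that ERK-regulated factors can bind. The letters were CCGGAAG for ETS, TGANTCA for AP-1, TGACGTC for the cAMP response element (CRE), CACGTG for the E-box of MYC and TFEB, and the CArG box of the serum response factor, and matches of different motifs overlapped in 13 promoters. Of the 14 largest falls, 8 had a promoter in the table, and 1 of these held a CRE, 1 a CArG box, 2 an E-box, 0 the ETS letters and 0 those of AP-1. These 2 promoters are shown because they carry such letters just upstream of genes that fell steeply, with every match to the searched letters in capitals: MAFF at chr22:38201744-38202043 on the plus strand, where 2 overlapping CRE matches begin 54 and 53 bases before the start and an E-box 196 bases before it, and RND3 at chr2:150487646-150487945 on the minus strand, where a CArG box begins 72 bases before it.
MAFF: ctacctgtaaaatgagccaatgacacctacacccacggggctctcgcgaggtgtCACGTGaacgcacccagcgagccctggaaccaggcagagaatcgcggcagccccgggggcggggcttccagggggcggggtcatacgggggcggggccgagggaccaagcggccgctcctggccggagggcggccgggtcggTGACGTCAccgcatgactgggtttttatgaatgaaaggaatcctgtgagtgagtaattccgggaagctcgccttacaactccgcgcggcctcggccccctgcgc
RND3: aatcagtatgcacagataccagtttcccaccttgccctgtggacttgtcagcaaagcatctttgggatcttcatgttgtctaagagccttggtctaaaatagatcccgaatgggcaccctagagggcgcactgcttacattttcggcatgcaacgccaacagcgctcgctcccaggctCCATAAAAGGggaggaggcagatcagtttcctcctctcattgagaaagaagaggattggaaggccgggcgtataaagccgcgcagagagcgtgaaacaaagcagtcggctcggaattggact
A match is a description of the letters and not a bound site. Over all matched promoters 6.29% held the CRE and 1.21% the CArG box, against 8.55% and 1.77% of the 339 promoters of genes that fell. The ETS letters stood in 20.6% of all promoters, in 20.1% of those of genes that fell and in 11.8% of the 314 of genes that rose. For AP-1 the shares were 4.04%, 4.13% and 4.78%.

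The other genes among the 14 largest falls belong to varied pathways. HES1, a repressor that is best known as a target of Notch, had signals of 495.0 and 746.3 with DMSO and of 41.9 and 23.2 at 1000 nM (-3.83, SE 0.45, limma adjusted p = 0.00822). Both treated signals were under the filter level, and with raised signals the change was -2.83. RND3, which loosens actin stress fibres, went from 471.6 to 56.9 and from 1594.5 to 126.5 (-3.17, SE 0.24). KCNN4, a potassium channel opened by calcium, went from 263.7 to 30.0 and from 1775.8 to 162.5 (-3.04, SE 0.23). Both genes started higher in Malme3M, and RND3 fell by 7.02-fold in SkMel-19 and 11.6-fold in Malme3M, KCNN4 by 6.56-fold and 10.2-fold. In SkMel-19 the treated signals of RND3 and KCNN4 lay under the filter level, so their falls there are uncertain in size. MANSC1, a membrane protein, went from 338.6 to 14.9 and from 351.6 to 36.4 (-3.31, SE 0.26), which is -2.01 with raised signals. MC1R, the receptor for melanocyte-stimulating hormone, went from 935.2 to 146.0 and from 2076.2 to 311.8 (-2.64, SE 0.15, limma adjusted p = 0.00153). In all 14 genes both treated signals lay below both DMSO signals, which was the case for 926 of the genes tested (12.9%). The list was chosen for the size of the change, so this is no more than a description.

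The genes that rose most did so by smaller factors. PNRC1, a coactivator of nuclear receptors, went from 253.7 to 1329.6 in SkMel-19 and from 283.7 to 1513.5 in Malme3M, and both pairs of arrays gave nearly the same rise (log2 change 2.35, SE 0.11, limma adjusted p = 0.00101). STON1, an adaptor in endocytosis, went from 42.9 to 220.4 and from 182.6 to 1034.4 (2.25, SE 0.17). CHAC1, which breaks down glutathione and is a target of the transcription factor ATF4, went from 73.5 to 301.0 and from 170.4 to 894.0 (2.09, SE 0.31, limma adjusted p = 0.0149). For these 3 genes both treated signals lay above both DMSO signals. PPARGC1A, which encodes PGC-1alpha, the coactivator that drives the making of mitochondria, was at 344.7 and 91.2 with DMSO and at 1179.0 and 564.3 with the drug (2.11, SE 0.21, limma adjusted p = 0.006). TFEB, the master regulator of lysosome genes, was at 93.7 and 134.7 and rose to 296.1 and 551.5 (1.74, SE 0.17, limma adjusted p = 0.00569). ID2, which blocks the DNA binding of helix-loop-helix proteins, rose from 335.0 to 1201.2 and from 1042.9 to 3423.4 (1.75, SE 0.10). CCNG2, a cyclin found in cells that have stopped dividing, rose from 351.8 to 1016.2 and from 380.3 to 1133.1 (1.52, SE 0.15).

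The other rises among the first 14 were HAS2 (1.77), which makes hyaluronan, GALNT3 (1.81), which starts O-linked sugar chains, HPGD (2.05), which inactivates prostaglandins, ASPA (1.68), which cleaves acetylaspartate, ESRP1 (1.67), a splicing regulator of epithelial cells, the chloride channel BEST1 (1.77) and PDE4DIP (1.78), a scaffold at the centrosome. In 11 of the 14 the treated signals lay above both DMSO signals, against 1027 of all genes tested (14.3%). The exceptions were ASPA, ESRP1 and PDE4DIP, where untreated Malme3M already exceeded treated SkMel-19. In 7 of the 14 at least 1 array of the comparison was under the filter level. For PDE4DIP both SkMel-19 arrays were (19.1 and 75.1), and its change with raised signals was 1.08.

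Arrays that took no part in the fit gave most of these genes the same direction. In SkMel-1, SkMel-5 and SkMel-28 at 250 nM 684 of the 803 genes (85.2%) moved in all 3 lines the way they moved at 1000 nM. The same was true of 2588 of the 6375 genes that did not pass (40.6%) and of 3272 of all genes tested (45.6%). No gene of the 803 moved the opposite way in all 3 (0 genes), and the 119 others were mixed. By direction, 367 of the 423 falls and 317 of the 380 rises kept their sign in all 3 lines. The 14 largest falls were lower in all 3 lines, and 13 of the 14 largest rises were higher. The exception was CHAC1, which had a log2 change of 4.05 in SkMel-1 but of -0.39 in SkMel-5 and 0.05 in SkMel-28. MANSC1 kept its direction but was at -0.57 in SkMel-1.

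**Figure D3:**
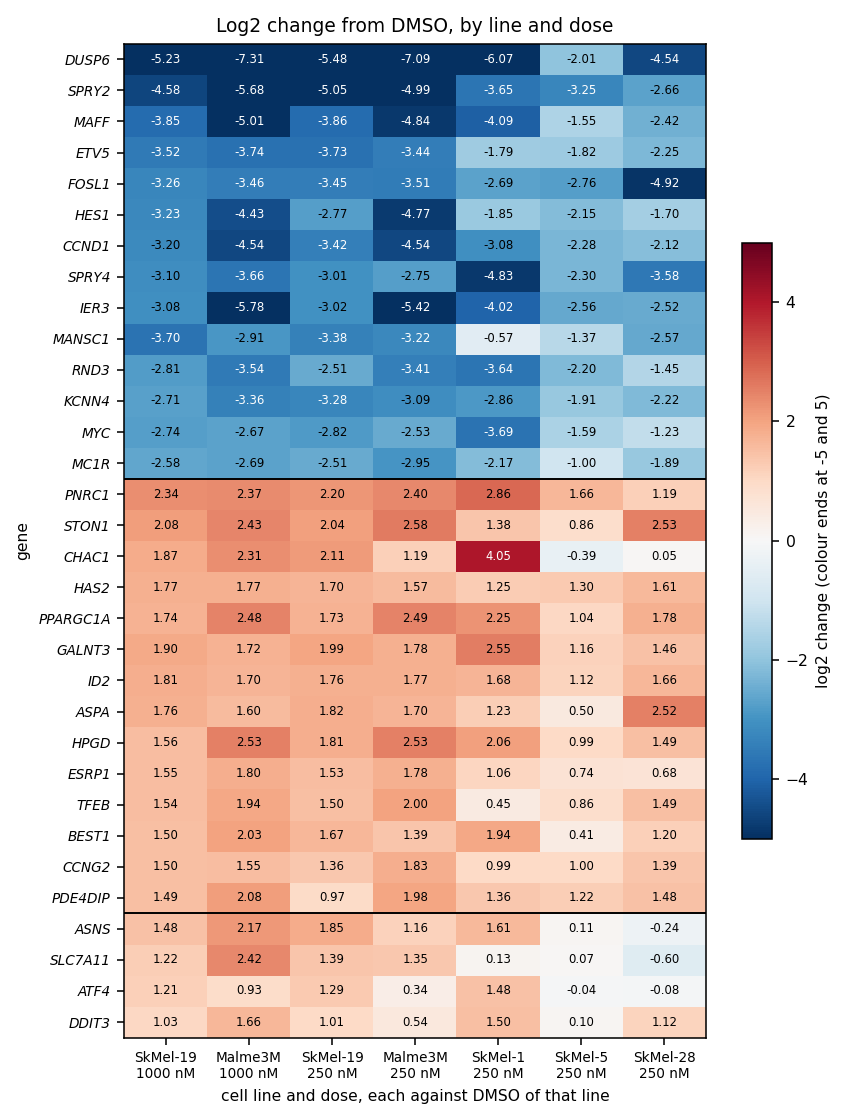
Log2 change from DMSO of the same line in each treated array, with colours ending at -5 and 5. Shown are the 14 largest falls, the 14 largest rises and 4 genes that rose in the amino acid and ATF4 lists. The falls are blue in all 7 columns, and the rises are red in all columns except for CHAC1 in SkMel-5, while ASNS, SLC7A11 and ATF4 are near 0 or below it in SkMel-5 and SkMel-28.

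No gene passed between 250 and 1000 nM in SkMel-19 and Malme3M. Between the 2 doses limma called 0 of 7178 genes (0%), with 75 genes at an unadjusted p under 0.05 and a smallest adjusted p of 0.999. The 250 nM arrays of these lines differed from the same DMSO arrays in 814 genes by limma. DUSP6 had signals of 12.2 and 31.5 at 250 nM beside 16.8 and 25.4 at 1000 nM, and CCND1 had 184.7 and 132.1 beside 216.7 and 131.3. Only 3 of the 14 largest falls and 3 of the 14 largest rises lay further from DMSO at 1000 than at 250 nM in both lines. BCL2L1, which encodes the survival protein BCL-XL, is an example of a gene that passed at 1000 nM (-0.46, limma adjusted p = 0.0468) with hardly any change at 250 nM (-0.04 and 0.01 in the 2 lines). Its difference between the doses was -0.45, with a limma adjusted p of 0.999.

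Cell cycle genes moved in both directions, and the count in each list is to be read against the 5.89% of all genes that fell and the 5.29% that rose. CCND1, the cyclin D1 that links ERK to entry into the cell cycle, fell from 2091.4 to 216.7 in SkMel-19 and from 3332.0 to 131.3 in Malme3M (-3.87, SE 0.31, limma adjusted p = 0.00334). Its fall was the steepest among 12 measured genes of G1 control, of which 5 fell (41.7%) and 0 rose (median -0.41). CDC25A, the phosphatase that activates CDK2, fell by 1.65 on the log2 scale, CCNE2 by 1.10, CCNE1 by 0.58 and CCND3 by 0.54. The kinases themselves did not pass, with CDK4 at 0.18 and CDK2 at 0.17. Of 29 measured DNA replication genes, 4 fell (13.8%) and 0 rose (median -0.19): CDC6, which loads the replicative helicase (-1.07), MCM10 (-1.0), the uracil glycosylase UNG (-0.79) and the helicase subunit MCM6 (-0.49).

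Among genes of mitosis those that passed were rises. Of 36 measured, 0 fell and 9 rose (25%), with a median of 0.18. KIF20A, a kinesin of cytokinesis, was at 1439.2 and 604.8 with DMSO and at 2493.6 and 1367.9 at 1000 nM (0.97, SE 0.12, limma adjusted p = 0.0101). It was higher in each line, although the groups overlapped because SkMel-19 started higher. CDC25C rose by 0.63 and HMMR by 0.58, and the rises of the other 6 were between 0.44 and 0.52. Among 17 measured CDK inhibitors and genes of resting cells 8 rose (47.1%) and 3 fell (17.6%; median 0.30). CDKN1B, the inhibitor p27, rose by 0.66 (1232.4 to 2095.4 and 1152.4 to 1707.4), together with CITED2 (1.17), TXNIP (1.08), FOXO3 (0.81) and BTG1 (0.80). CDKN1A, the inhibitor p21, did not pass (-0.22, limma adjusted p = 0.252). The 3 that fell were the Krüppel-like factors KLF9 (-2.11, with treated signals of 83 and 72.2), KLF4 (-2.02) and KLF2 (-1.01), which growth signals can also induce.

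Most of the measured genes that build ribosomes fell. Of 23 measured nucleolus and ribosome assembly factors, 15 fell (65.2%, against 5.89% of all genes) and 0 rose. In both lines 22 were lower (median -0.81). Over all 7178 genes tested, 2283 were lower in both lines. RRS1, needed for the large subunit, went from 1181.0 to 481.2 in SkMel-19 and from 999.6 to 246.5 in Malme3M (-1.62, SE 0.18, limma adjusted p = 0.00777). BRIX1, another large subunit factor, went from 308.5 to 101.8 and from 291.1 to 101.8 (-1.45, SE 0.16). DDX21, an RNA helicase of the nucleolus, went from 4443.3 to 2007.8 and from 2414.5 to 731.2 (-1.42, SE 0.15). In each of these genes, which were named for the size of their fall, the 2 treated arrays were below both DMSO arrays. The same held for 15 of the 23 list members and for 926 of all genes tested (12.9%). Among RNA polymerase I and III subunits 7 of 18 fell (38.9%) and 0 rose (median -0.55), led by POLR1G (-1.46), POLR3G (-1.10) and POLR1C (-1.03). Of 19 measured enzymes of purine, pyrimidine and one-carbon metabolism 4 fell (21.1%) and 0 rose (median -0.26). They were PPAT, the first step of purine synthesis (-1.11), CTPS1 (-0.91), UMPS (-0.65) and GART (-0.51).

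The E-box letters CACGTG stood in the promoters of 9 of 19 matched ribosome assembly genes (47.4%), of 3 of 15 polymerase genes (20%) and of 10.9% of all matched promoters. Of the matched genes that fell, 5 of 11 ribosome assembly genes and 1 of 4 polymerase genes had the letters. Members that did not pass, such as FBL and NOP14, had them too. These lists were picked for the search after their values had been seen. Among all genes that passed, the share was 12.4% for those that fell and 13.7% for those that rose. The 3 promoters below belong to genes that fell and show where the letters lie, in capitals: BYSL at chr6:41921249-41921548 on the plus strand, 28 bases after the start, NOP2 at chr12:6568242-6568541 on the minus strand, 35 bases after it, and POLR1G at chr19:45406394-45406693 on the plus strand, 12 bases before it.
BYSL: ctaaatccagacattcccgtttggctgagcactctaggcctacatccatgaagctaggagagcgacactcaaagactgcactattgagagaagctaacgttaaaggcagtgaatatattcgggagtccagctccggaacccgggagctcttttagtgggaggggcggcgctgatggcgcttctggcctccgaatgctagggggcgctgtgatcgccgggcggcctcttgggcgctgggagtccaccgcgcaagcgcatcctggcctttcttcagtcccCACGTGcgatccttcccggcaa
NOP2: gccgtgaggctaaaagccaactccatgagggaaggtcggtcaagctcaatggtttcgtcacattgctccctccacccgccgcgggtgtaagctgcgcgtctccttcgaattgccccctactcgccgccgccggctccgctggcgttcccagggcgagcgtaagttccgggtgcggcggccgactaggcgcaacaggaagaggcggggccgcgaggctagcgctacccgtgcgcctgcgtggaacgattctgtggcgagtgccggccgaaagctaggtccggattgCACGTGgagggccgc
POLR1G: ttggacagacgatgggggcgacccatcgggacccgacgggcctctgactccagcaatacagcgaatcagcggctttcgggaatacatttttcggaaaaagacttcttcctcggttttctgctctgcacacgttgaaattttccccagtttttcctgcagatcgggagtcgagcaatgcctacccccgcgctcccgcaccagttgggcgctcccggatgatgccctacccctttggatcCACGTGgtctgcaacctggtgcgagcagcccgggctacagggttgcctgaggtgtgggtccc
BYSL, a factor for the small subunit, went from 843.2 to 382.1 and from 918.7 to 299.2 (-1.35), and NOP2, an RNA methyltransferase of the nucleolus, from 823.0 to 377.6 and from 781.5 to 285.5 (-1.26).

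Among lysosome genes those that passed rose, and the same letters were common. The E-box was found in 8 of 18 matched promoters of lysosome genes (44.4%), and 3 of the 6 that rose and were matched had it. Both MYC and TFEB can bind this sequence, and a match does not tell them apart. The promoters of MCOLN1, at chr19:7522374-7522673 on the plus strand, with E-boxes 41 and 14 bases before the start, and of ATP6V0D1, at chr16:67481108-67481407 on the minus strand, with 1 at 59 bases before it, are shown for comparison with those of the ribosome genes.
MCOLN1: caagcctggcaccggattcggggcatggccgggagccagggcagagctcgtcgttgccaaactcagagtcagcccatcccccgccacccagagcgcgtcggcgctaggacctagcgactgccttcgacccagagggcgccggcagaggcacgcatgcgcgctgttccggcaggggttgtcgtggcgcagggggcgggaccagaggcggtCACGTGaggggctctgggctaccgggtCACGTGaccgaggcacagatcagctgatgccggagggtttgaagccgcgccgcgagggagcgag
ATP6V0D1: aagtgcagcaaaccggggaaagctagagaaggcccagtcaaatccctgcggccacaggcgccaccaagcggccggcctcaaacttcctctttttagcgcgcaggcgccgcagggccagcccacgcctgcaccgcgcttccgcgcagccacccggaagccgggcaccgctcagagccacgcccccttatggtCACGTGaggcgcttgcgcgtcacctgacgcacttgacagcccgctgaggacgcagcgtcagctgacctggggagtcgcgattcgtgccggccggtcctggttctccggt
Of 25 measured lysosome genes 9 rose (36%, against 5.29% of all genes), 0 fell and 22 were higher in both lines (median 0.33). Over all 7178 genes tested, 2947 were higher in both lines. In the other 3 lines at 250 nM, 10 of the 25 kept their sign in every line, against 3272 of all genes tested (45.6%). After TFEB itself the largest rise was that of MCOLN1, the calcium channel of the lysosome, from 1131.6 to 2100.0 in SkMel-19 and from 424.5 to 1268.3 in Malme3M (1.22, SE 0.17, limma adjusted p = 0.0123). Most rises were small: GM2A, a cofactor in ganglioside breakdown, rose by 0.53, the proton pump subunit ATP6V0D1 by 0.47, the hexosaminidase HEXA by 0.46 and the protease CTSA by 0.42. MCOLN1 was at -0.08 in SkMel-1, 0.21 in SkMel-5 and 0.46 in SkMel-28 at 250 nM.

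Several genes of amino acid supply rose. Of 12 measured transporters and serine synthesis genes 6 rose (50%) and 1 fell (8.33%), with a median of 0.64. Of 19 genes of ATF4 and the unfolded protein response 5 rose (26.3%) and 0 fell (median 0.17). Over all genes tested 5.29% rose and 5.89% fell. ASNS, the asparagine synthetase, went from 310.7 to 885.2 in SkMel-19 and from 899.4 to 4102.1 in Malme3M (1.82, SE 0.30, limma adjusted p = 0.019). SLC7A11, the cystine importer, went from 951.7 to 2237.3 and from 179.8 to 1014.9 (1.82, SE 0.30, limma adjusted p = 0.0197). Its partner chain SLC3A2 rose by 0.99, the leucine transporter SLC7A5 by 0.65 and PSAT1 of serine synthesis by 0.96, and the neutral amino acid carrier SLC1A4 fell by 0.49. ATF4 itself rose by 1.07 (limma adjusted p = 0.031) and DDIT3, the stress factor CHOP, by 1.34 (limma adjusted p = 0.0289). The ATF4 list did not move as a whole: 11 of its 19 genes were higher in both lines, 4 lower in both and 4 opposite. TRIB3 (-0.39) and DDIT4 (-0.38) were lower in both lines and did not pass.

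In the arrays outside the fit these genes did not all keep their direction. In each of the 3 lines 7 of the 12 amino acid genes had the sign they had at 1000 nM. The same held for 6 of the 19 genes of the ATF4 list and for 45.6% of all genes. PSAT1 was at 1.86 in SkMel-1, 0.57 in SkMel-5 and 0.49 in SkMel-28, and DDIT3 at 1.5, 0.10 and 1.12. ASNS was at 1.61 in SkMel-1, 0.11 in SkMel-5 and -0.24 in SkMel-28, and SLC7A11 at 0.13, 0.07 and -0.60. ATF4 was at 1.48, -0.04 and -0.08, so these 3 had both signs. In Malme3M the 4 genes CHAC1, ASNS, SLC7A11 and DDIT3 had signals of 403.1, 2019.7, 478.3 and 263.1 at 250 nM and of 894.0, 4102.1, 1014.9 and 584.4 at 1000 nM, about a doubling in each. In SkMel-19 the corresponding signals were 358.0, 1151.0, 2511.9 and 452.8 at 250 nM and 301.0, 885.2, 2237.3 and 457.3 at 1000 nM. None of these differences between doses passed limma (adjusted p = 0.999 for each of the 4).

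In energy metabolism the shares that passed lay between 4.55% and 16.7%, against 11.2% of all genes, so they describe single genes and not the lists. HK2, the hexokinase bound to mitochondria, went from 1752.8 to 353.1 in SkMel-19 and from 1712.0 to 413.5 in Malme3M (-2.15, SE 0.16, limma adjusted p = 0.00266). It was the only one of 22 measured glucose uptake and glycolysis genes that passed (4.55%), and the median of the list was 0.00 (-0.03 with each array centred on its median). LDHA, the lactate dehydrogenase, was at -0.04. Among 30 measured respiratory chain genes and regulators 4 rose and 1 fell (16.7% passed; median 0.18). Besides PPARGC1A the rises were NDUFA1 (0.39), NDUFB5 (0.38) and UQCRB (0.36), and TFAM, which keeps mitochondrial DNA, fell by 0.53. Of 13 measured genes of cholesterol synthesis and uptake 2 fell, SQLE (-1.21) and IDI1 (-0.68), and 0 rose (15.4% passed; median -0.27).

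More pigment cell genes rose than fell. Of 25 measured melanocyte genes 9 rose (36%, against 5.29% of all genes) and 1 fell (4%, against 5.89%). The median was 0.35. TRPM1, a channel named melastatin, had signals of 366.4 and 52.4 with DMSO and of 776.2 and 330.1 at 1000 nM (1.73, SE 0.35, limma adjusted p = 0.0347). KIT, the receptor of stem cell factor, had 146.9 and 1033.7 with DMSO and 393.5 and 4074.2 at 1000 nM (1.66, SE 0.16, limma adjusted p = 0.00586). Each was higher with the drug within each line, and the groups overlapped because the lines started far apart. RAB27A, which carries melanosomes, rose from 1922.2 to 4577.1 and from 3648.4 to 8156.7 (1.20), and OCA2 (0.89), RAB38 (0.77), the endothelin receptor EDNRB (0.71) and MYO5A (0.62) rose less. In SkMel-1 at 250 nM OCA2 (-0.52) and EDNRB (-0.63) were lower, whereas RAB27A, RAB38 and MYO5A were higher. Of the 25 genes, 13 had the sign of the 1000 nM fit in each of the other 3 lines (45.6% over all genes). MITF, the regulator of the lineage, was at 5492.9 and 5931.0 with DMSO and at 6067.7 and 6356.8 with the drug, a change that did not pass (0.12, SE 0.08, limma adjusted p = 0.312). TYR, the tyrosinase, was at 0.03.

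At the cell surface and outside it the picture was mixed. Of 26 measured genes of the cytoskeleton, adhesion and invasion, 8 fell (30.8%) and 2 rose (7.69%), with a median of -0.41. Over all genes tested 5.89% fell and 5.29% rose. After RND3 the falls were NEDD9, a docking protein in cell movement (-1.80), PLAUR, the urokinase receptor (-1.72), TIMP3 (-1.68), PLAT (-1.62), ACTN1 (-1.11), ZYX (-0.96) and ITGA6 (-0.62). For PLAUR 2 other probe sets gave 0.08 and -2.14, so its fall depends on the probe set. The matrix protease MMP2 (0.65) and the hyaluronan receptor CD44 (0.32) rose. Of 11 measured receptor tyrosine kinases 1 fell and 1 rose (9.09% each), which describes single genes and not the list. EPHA2 fell from 248.1 to 70.6 and from 152.4 to 40 (-1.66, limma adjusted p = 0.0445). Both its treated signals were under the filter level, so its fall is uncertain in size. MET, the receptor of hepatocyte growth factor, rose from 1716.1 to 2941.0 and from 2054.3 to 5123.1 (1.04, limma adjusted p = 0.0107).

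Among 9 measured secreted cytokines and growth factors 2 fell (22.2%, against 5.89% of all genes) and 1 rose (11.1%, against 5.29%). The median was -0.62. GDF15, a stress cytokine, fell from 10460.3 to 2959.6 in SkMel-19 and from 8227.9 to 1010.4 in Malme3M (-2.41, SE 0.46, limma adjusted p = 0.0285). CXCL1, a chemokine for neutrophils, fell from 97.2 to 28.5 and from 818.3 to 98.3 (-2.17, SE 0.35). Its treated SkMel-19 signal was under the filter level, and the groups overlapped. SPP1, the matrix protein osteopontin, rose from 2402.2 to 6661.9 and from 909.2 to 3428.6 (1.68, SE 0.11, limma adjusted p = 0.00221). All 3 moved the same way in each line, as did all 803 genes that passed.

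The counts of survival and stress genes that passed are given beside the 11.2% of all genes: 3 of 14 in the BCL2 family (21.4%), 2 of 12 p53 targets (16.7%), 2 of 16 heat shock genes (12.5%) and 0 of 20 interferon genes. Of 14 measured BCL2 family genes MCL1, a survival protein with a short life, fell by 0.62 in each line (limma adjusted p = 0.0119), BCL2L1 fell and BNIP3L rose by 0.58 (median -0.15). Among 12 measured p53 targets SESN1 rose by 0.83 and GDF15 fell (median 0.37). Of 16 heat shock proteins and cochaperones DNAJB4 rose by 1.10 and DNAJA1 fell by 0.48 (median -0.09). Of 20 interferon and antigen presentation genes 0 passed, and IRF9 came nearest (0.58, limma adjusted p = 0.0565).

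**Figure D4:**
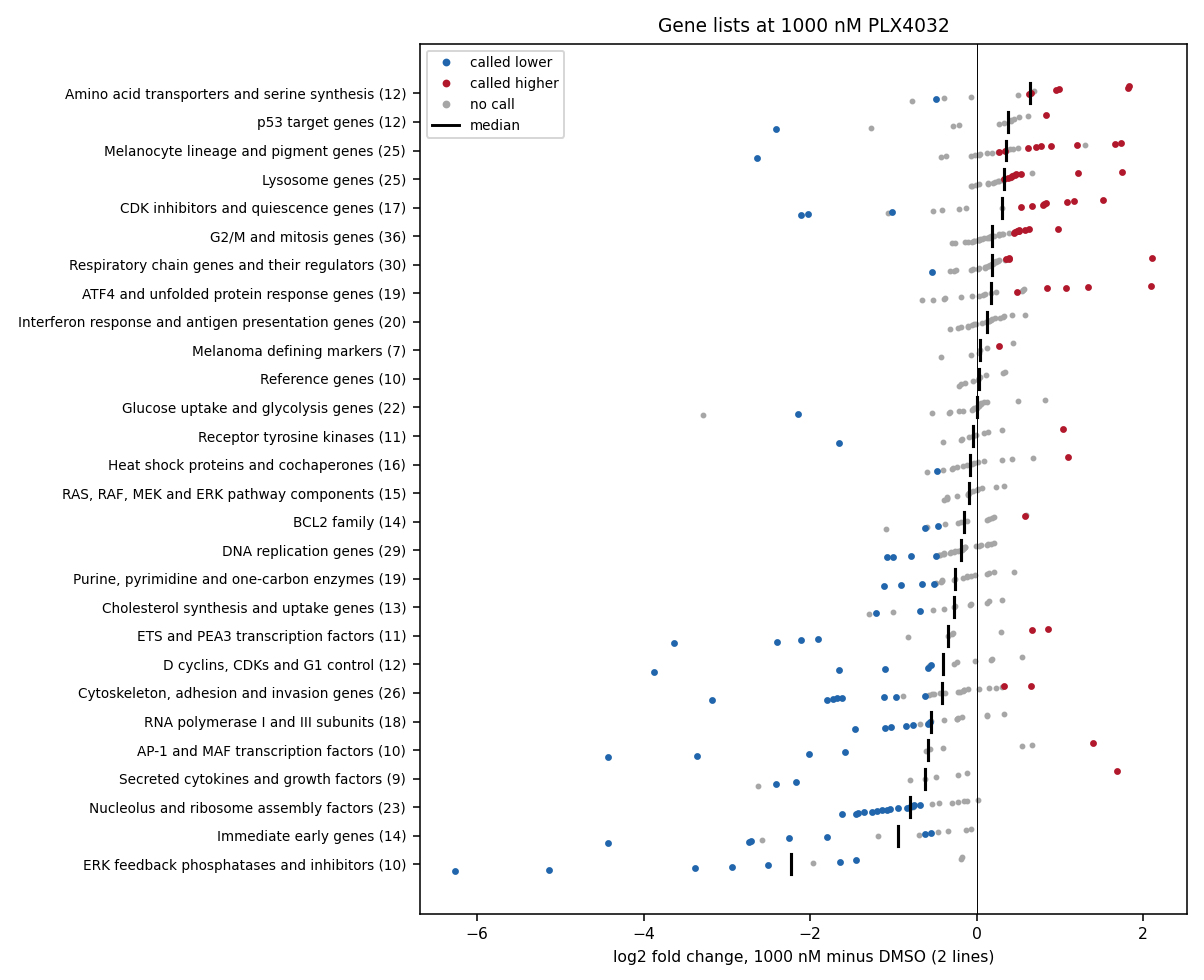
Log2 change at 1000 nM PLX4032 (fit over 2 lines) of each measured member of 28 gene lists, with the number measured in brackets and the list median as a black bar. Blue and red points passed limma and grey points did not; the ERK feedback genes lie furthest to the left (median -2.23) and the amino acid genes furthest to the right (median 0.64).

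Markers of the cells and of RNA quality were set beside these changes. The melanoma markers were high in every array, with a summed signal of 56928.1 against 63033.9 in SkMel-19 and of 59253.8 against 63383.5 in Malme3M (DMSO against 1000 nM). Of the 7 measured, MLANA rose (0.26, limma adjusted p = 0.0204), and the median was 0.04 (-0.01 after quantile normalization). Of fibroblast markers 4 were measured and 0 passed, with sums, over all markers of the list on the array, of 872.8 against 918.1 and of 1888.3 against 2279.5. Of blood cell markers LCP1 alone was measured (0.10, limma adjusted p = 0.793), with sums of 208.9 against 186.9 and of 246.6 against 235.7, and no endothelial marker reached the filter (0 of 6). Among 3 measured epithelial markers KRT18 fell by 1.15, with sums of 2220.4 against 1894.4 and of 5015.9 against 5376.9. The ratio of 3' to 5' signal shifted between DMSO and 1000 nM by 0.00 and 0.04 for GAPDH and by 0.04 and 0.06 for ACTB on the log2 scale in SkMel-19 and Malme3M. The 10 reference genes had a median of 0.02 (-0.01 with each array centred on its median) and 0 passed. The part of these values in the results was not tested.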

How the data were processed

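The deposited table holds linear intensity values per probe set, made by the authors with GCOS, the Affymetrix software, per the submitters' processing notes; its version was not given in the sources used here. Its 22277 probe sets on 12 arrays include 62 controls, which were set aside. Of the others, 19064 had 1 gene symbol, 1043 several and 2108 none (platform annotation), and 19052 were matched by Entrez ID to RefSeq names. The median signal was between 102.5 and 130.4, and the number of arrays limits the precision.

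Values were kept as deposited and analysed as log2(value + 12), where 12 is their 20th percentile. Where a gene (11963 in all) had several probe sets, the brightest on average stood for it. The 7178 genes with a mean log2 of at least 6.61, the 40th percentile, were tested. limma 3.58.1 in R 4.3.3 was fitted to the 6 arrays of SkMel-19 and Malme3M with dose and line as terms (2 residual degrees of freedom, trended prior variance) and checked on simulated data. The line pairs the arrays, per the labels, and across genes the difference between lines at DMSO and at 1000 nM correlated at 0.917.

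The members and the 32 gene lists were chosen with earlier results of these data known. Named were the 14 falls and 14 rises with the largest smaller change of both lines, 12 genes named in any case, and of each list up to 3 members that passed or, where none did, the one with the smallest p. Other members and genes in the text were chosen after their values were seen. Other settings were the pseudocount, filter, scaling, probe set, arrays in the fit, block, trend, floor and leaving out a line.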

Additional observations from a re-analysis of the deposited data

Results flagged for a closer look

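The 2 lines moved opposite ways, by differences that were not tested, in LCP1 and in several list medians. LCP1, the blood cell marker measured, had a log2 change of 0.47 in SkMel-19 and of -0.26 in Malme3M, and it is the whole of its list. The receptor tyrosine kinases had medians of 0.15 and -0.18, the epithelial markers of -0.20 and 0.15, and the melanoma markers of 0.12 and -0.05. The heat shock genes were at 0.02 and -0.13, the glucose genes at 0.03 and -0.03 and the reference genes at 0.06 and -0.02.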

How the results depend on the processing

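The count of 803 changed genes became 445 with no filter on low signals, 518 with the 4 arrays of the comparison alone, 530 without a trended prior and 472 with signals under 85.7 raised to that value. With no replicate block for the line it was 0 by limma (353 genes at an unadjusted p under 0.05, against 2313 with the block). Leaving out a line gave 46 to 114 genes. Of the 81 named genes that passed, 23 did so without SkMel-19 and 17 without Malme3M. All 803 genes kept their direction in those fits, and under the other settings each gene that had a value did, except 4 of 761 with a second probe set. The genes moving alike in the other 3 lines, 684 in all, became 385 with no filter, 454 with no trend and 392 with raised signals. That count was not made for the fits that use those lines, nor without a block. At least 2-fold rises in both lines, 54 in all, became 33 with a pseudocount of 50, 82 with no filter and 30 with a filter at the 60th percentile, which also left 64 of the 115 falls of that size. Among the named genes the direction turned in 2: PLAUR gave 0.08 with a second probe set, and LCP1 gave -0.12 without SkMel-19 (0.51 without Malme3M) and -0.15 with raised signals. Signals near the bottom of the scale limit the size of the largest falls.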

Other observations

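Apart from the list members and the genes named above, 96 genes passed limma and moved at least 2-fold in both lines. The following were chosen after their values were seen. The guidance molecules of the semaphorin family split: SEMA4C went from 5068.6 to 876.9 in SkMel-19 and from 4487.7 to 968.1 in Malme3M (log2 change -2.36), whereas SEMA3C went from 1068.2 to 2936.8 and from 523.3 to 1746.6 (1.58) and SEMA6A rose by 1.38. The inhibitory SMAD genes split as well, with SMAD7 at -1.03 and SMAD6 at 1.33. The DMSO signal of SMAD6 in SkMel-19 was 35.9, under the filter level, and its change with raised signals was 0.88. HEY1, a relative of HES1, fell from 2866.5 to 686.5 and from 2608.8 to 355.4 (-2.44). LEF1, a factor of the Wnt pathway, fell by 2.42, and PTCH1, the Hedgehog receptor, by 1.74. TNFRSF12A, the receptor of TWEAK, fell from 1282.7 to 213.9 and from 3734.4 to 707.2 (-2.45). The vitamin D receptor VDR fell by 2.08, to signals of 69.1 and 67.2, and the retinoid receptor RXRB, with which such receptors pair, rose by 1.06. CTH, which makes cysteine, rose by 1.70, and SOX4, a developmental factor, rose from 825.2 to 2080.0 and from 1207.8 to 3326.4 (1.39).

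Of 1241 probe sets with several gene symbols or none that reached the filter level, 10 were at least 2-fold lower and 6 at least 2-fold higher in both lines, and they are unnamed here.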
